A study of Mus musculus with 6 samples.

Results

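The 7 genes described here encode ubiquitin ligases, or substrate adaptors of ubiquitin ligases, that are known from striated muscle: Trim63, Trim55, Trim54, Fbxo32, Asb2, Trim72 and Trim7. They were taken by gene symbol from a deposited table of 22063 genes, where each symbol stood on 1 row. 5 of the 7 carry a tripartite motif (TRIM) symbol, while Fbxo32 is an F-box gene and Asb2 an ankyrin repeat and SOCS box gene, so the set is wider than the TRIM family. The genes were picked with the difference between the 2 groups of the study already known. Their group values are therefore given as a description, with no test.

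Cardiomyocytes of wild-type mice were profiled by RNA sequencing in 6 libraries. The AKG group (3 libraries) was injected every day for 2 weeks with 300 mg per kg of α-ketoglutarate, a metabolite of the tricarboxylic acid cycle, and the Control group (3 libraries) with phosphate-buffered saline. The labels name postnatal day 21 without saying to which end of the injections it belongs, and the cells were freed from the heart by Langendorff perfusion. The labels name neither the strain nor whether a library held 1 mouse or a pool, so every p-value measures only the spread between these libraries. The study used the comparison to look for pathways behind division of heart muscle cells.

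A ubiquitin ligase chooses the protein to which ubiquitin is attached, and many proteins tagged in this way are broken down by the proteasome. In TRIM proteins a RING domain recruits the ubiquitin-conjugating enzyme directly, while F-box and SOCS box proteins bring the substrate to a ligase built on a cullin. Trim63 (MuRF1) and Fbxo32 (atrogin-1) are the classical genes of muscle wasting and are known targets of FoxO transcription factors and of the glucocorticoid receptor. In the heart they are also known for limiting growth and for turnover of contractile proteins.

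RefSeq windows of the GRCm38.p6 build were matched for 5 of the 7 genes, and Trim55 and Fbxo32 had no match. The 250 bases before the start of 3 genes are printed 5′ to 3′ because their motif content differed: the MuRF paralogs Trim63 (chr4:134314870-134315119, plus strand) and Trim54 (chr5:31116362-31116611, plus strand), which differed between the groups in opposite directions, and 1 of the 2 windows of Asb2 (chr12:103356002-103356251, minus strand). Capitals mark matches to a FoxO core, a glucocorticoid response element, an MCAT element, an AP-1 site or a CArG box.
Trim63: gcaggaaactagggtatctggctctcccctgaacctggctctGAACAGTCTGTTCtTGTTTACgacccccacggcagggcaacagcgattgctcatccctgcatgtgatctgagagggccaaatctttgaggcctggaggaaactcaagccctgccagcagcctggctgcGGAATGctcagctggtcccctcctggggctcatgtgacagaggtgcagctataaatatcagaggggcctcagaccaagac
Trim54: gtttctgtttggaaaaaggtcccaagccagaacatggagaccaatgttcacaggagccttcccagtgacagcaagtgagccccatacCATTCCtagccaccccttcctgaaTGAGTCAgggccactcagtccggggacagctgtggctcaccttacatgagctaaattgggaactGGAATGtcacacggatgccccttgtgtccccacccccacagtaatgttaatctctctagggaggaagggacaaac
Asb2: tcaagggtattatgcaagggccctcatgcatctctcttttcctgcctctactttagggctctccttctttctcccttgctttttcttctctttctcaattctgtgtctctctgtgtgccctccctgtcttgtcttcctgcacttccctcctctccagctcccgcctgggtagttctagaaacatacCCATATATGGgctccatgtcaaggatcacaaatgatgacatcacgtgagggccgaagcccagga

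The Trim63 window held a glucocorticoid response element from -208 to -196 before the start, next to a FoxO core (searched as GTAAACA, here on the other strand) from -194 to -188. Of 32851 windows of the same length, 0.387% held the former and 3.17% the latter, each searched on both strands. In the Trim54 window neither was found, and it held the MCAT element (CATTCC, in 12.6% of windows) at 2 places and an AP-1 site (TGANTCA, in 6.75%). The MCAT element was also found in the Trim63 window, from -80 to -75, and in a window of Trim7, from -122 to -117. The printed Asb2 window held a CArG box, the site of serum response factor, from -64 to -55 (1.47% of windows). E-boxes (CANNTG), found in 66.2% of all windows, were in the windows of Trim63, Trim54, Trim72, one window of Trim7 and the printed window of Asb2. No window of the 5 genes held the MEF2 site (2.92%). A match describes these letters only and does not show that a factor was bound.

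After AKG, 3 of the 7 transcripts stood higher and 4 lower. Trim63, Trim55 and Fbxo32 were higher by 1.54-fold, 1.5-fold and 2.01-fold, and Trim7, Trim72, Trim54 and Asb2 were lower by 10.3-fold, 3.95-fold, 3.60-fold and 1.81-fold. For none of the 7 genes did the Control and AKG libraries overlap. The same was true of 59.2% of the 13117 tested genes (29.4% with AKG above Control and 29.9% below), and 50.2% passed the threshold of the edgeR test in either direction. Since the genes were chosen on this contrast, nothing is read from their count. Levels are counts scaled to the library total (CPM), with totals adjusted by the trimmed mean method (TMM), given as mean ± SD over 3 libraries, and each log2 fold change has its standard error (SE) from the edgeR fit over all genes. TMM sets the typical gene to no difference, so every value is relative to it. In bulk RNA, fewer cells of a type and less RNA per cell cannot be told apart.

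**Figure D1:**
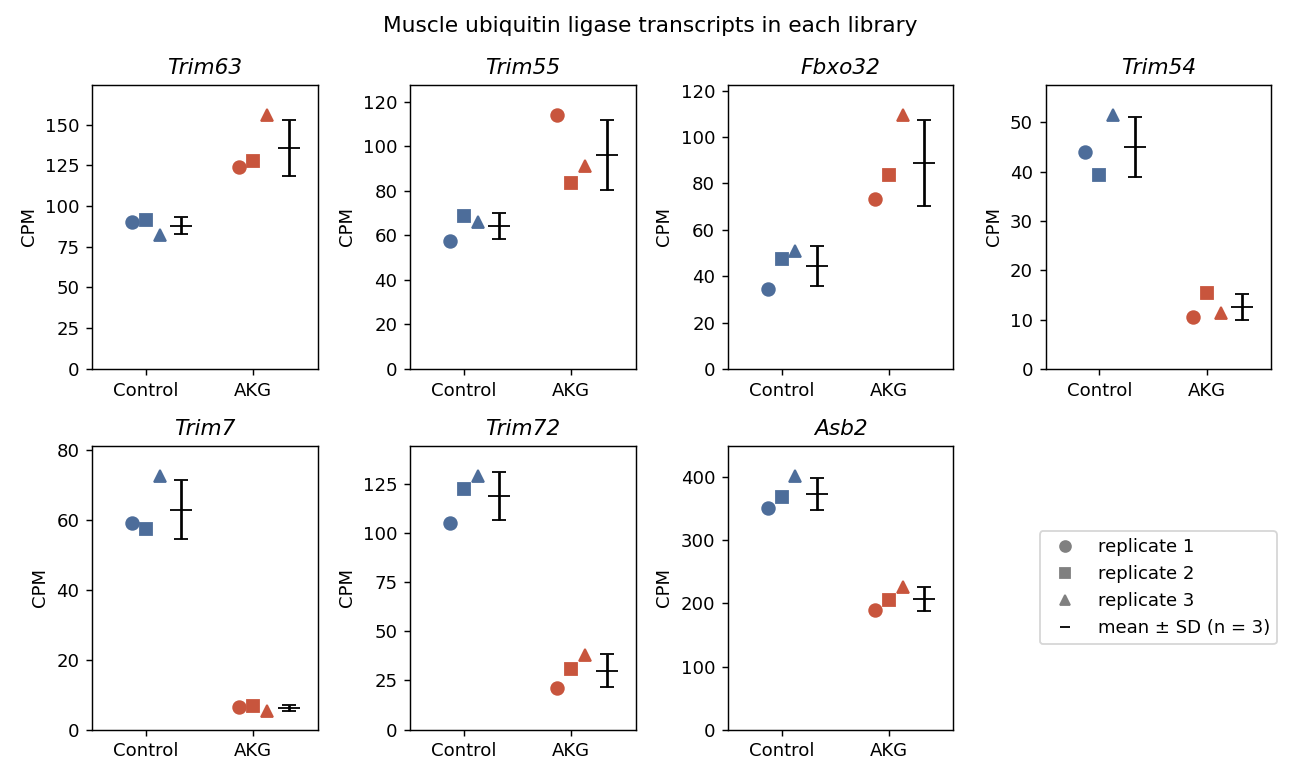
CPM (vertical axes, starting at 0) of the 7 genes in the 3 Control and 3 AKG libraries, 1 symbol per library, with mean ± SD beside each group. Trim63, Trim55 and Fbxo32 stood higher in every AKG library than in any Control library, and Trim54, Trim7, Trim72 and Asb2 stood lower.

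Libraries held 14402876 to 17797368 counts. Of 8 cardiomyocyte markers, 6 were lower and 0 higher after AKG by edgeR's quasi-likelihood test, beside 25.2% of all tested genes lower. Pln and Actn2 were not past the threshold. The sum of the 8 was 51200 to 55200 CPM in Control and 27300 to 30700 CPM in AKG. Myh6 was its largest part, at 27000 to 29000 CPM in Control and 10400 to 13800 CPM in AKG. Scaling by total counts gave log2 fold changes of -0.03 for Ttn and -0.8 for Tnni3, both among the 6. Summed atrial markers stood at 109 to 176 CPM in Control and at 949, 498 and 1020 CPM in AKG 1, 2 and 3, and Sln, an atrial gene, at 42.8, 0.186 and 28.8 CPM in these AKG libraries. Of 6 tested atrial markers 3 were higher. Most of the AKG 2 sum was Nppa, at 454 CPM there and 85.7 to 139 CPM in Control. Nppa, Dkk3, Gja5 and Mybphl stood above every Control library in AKG 2, while Sln, Myl4, Myl7 and Bmp10 did not. For Mybphl this rests on 10 counts in AKG 2, beside 7, 4 and 2 in Control 1, 2 and 3. It had 254 counts in AKG 1 and 217 in AKG 3. Since several of the ligases are also expressed in skeletal muscle, 16 markers of that tissue were examined. Myod1 and Myh4 were at 0 in all libraries, and Myh1 and Myh2 did not exceed 0.0621 CPM. The sum was 54.6 to 72.7 CPM in Control and 16.7 to 24.1 CPM in AKG, most of it from Myl1 and Mybpc2. Of these markers 4 were tested, with 3 lower and 1 higher. Myh8 stood at 0 in every Control library and at 2.47, 0.808 and 1.94 CPM in AKG 1, 2 and 3. Sums over 7 fibroblast markers (1490 to 1840 against 1260 to 1580 CPM), 6 endothelial (1240 to 1360 against 1320 to 1550), 6 smooth muscle (1930 to 2120 against 932 to 1130), 7 macrophage (106 to 159 against 63.2 to 89.1) and 6 neutrophil markers (0.736 to 1.5 against 5.28 to 12.1) are given for Control against AKG. Within 2 of these sums markers moved both ways: 2 fibroblast markers were higher and 3 lower, and 3 endothelial markers higher and 2 lower. Of smooth muscle markers 0 were higher and 5 lower, and of macrophage markers 0 and 4. Of 4 tested neutrophil markers 4 were higher. Over all tested genes 25% were higher. The part of these differences in the values below was not tested. AKG 2, which is low in Sln but not in Nppa, is therefore also compared alone with the Controls.

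The 3 MuRF genes encode closely related RING proteins of the sarcomere and can form dimers with each other. Trim63, whose protein binds titin at the M band, stood at 90.5, 91.4 and 82.3 CPM in Control 1, 2 and 3 and at 124, 128 and 156 CPM in AKG 1, 2 and 3. The groups did not overlap, and AKG 3 stood above the other AKG libraries. The means were 88.1 ± 5.01 and 136 ± 17.3 CPM, a log2 fold change of 0.63 (SE 0.092). Of tested genes, 12.6% had a higher log2 fold change.

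Trim55 (MuRF2), which links titin to signalling and to microtubules during sarcomere assembly, stood at 57.6, 68.8 and 66.3 CPM in the Control libraries and at 114, 83.4 and 91.4 CPM in the AKG libraries. AKG 1 was the highest, and the lowest AKG value was 1.21 times the highest Control value, the narrowest gap of the 7 genes. Its log2 fold change was 0.58 (SE 0.114), and 0.38 with AKG 2 alone against the Controls.

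Trim54 (MuRF3), known for stabilising microtubules, went the other way. It stood at 44.0, 39.3 and 51.4 CPM in the Control libraries and at 10.6, 15.5 and 11.3 CPM in the AKG libraries. Every AKG value was below every Control value by at least 2.54-fold. The log2 fold change was -1.85 (SE 0.147), and -1.53 with AKG 2 alone, the AKG library in which the gene was highest. Of tested genes, 1.26% had a lower one. In the GENCODE M21 annotation an antisense gene, Gm15469, covers 26.6% of the exon bases of Trim54. The sources used here do not state whether counting used strand, so on these shared bases reads of the 2 genes cannot be told apart.

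Because the 3 MuRF transcripts differed in opposite directions, the make-up of their pool differed. In FPKM, the authors' length-scaled unit, the share of Trim54 in the summed MuRF level was 26.8% to 34.1% in Control and 6.28% to 9.74% in AKG. Trim63 made up 41.6% to 47.6% and 56.1% to 65.7%, and Trim55 22% to 25.9% and 28.0% to 37.5%. The ratio of Trim63 to Trim54 was 1.22 to 1.77 in Control and 6.28 to 10.5 in AKG, while the ratio of Trim63 to Trim55 overlapped between the groups (1.71 to 2.16 and 1.5 to 2.34). Such ratios within a library do not depend on how libraries are scaled to each other. Trim54 had a larger share than Trim55 in every Control library and the smallest of the 3 in every AKG library.

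**Figure D2:**
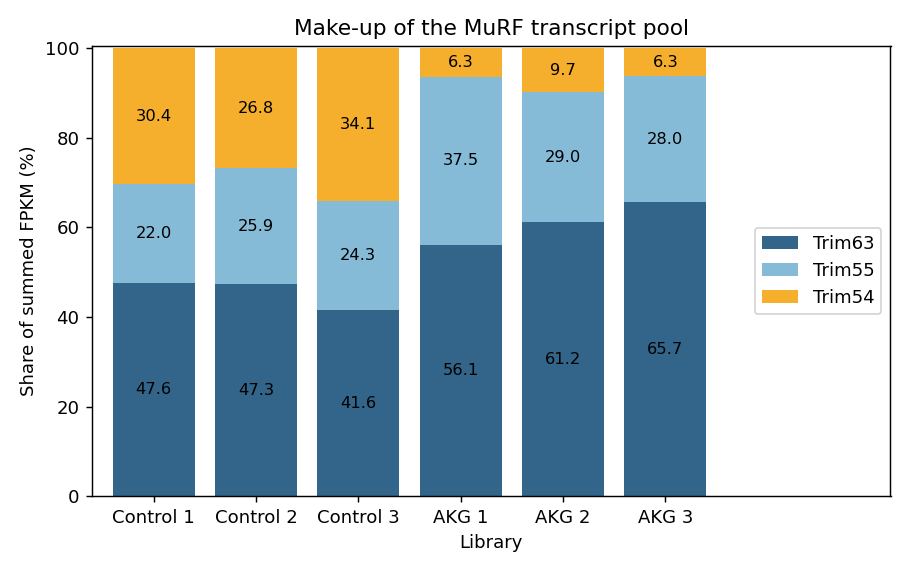
Stacked bars of the share (%) of Trim63, Trim55 and Trim54 in the summed FPKM of the 3 MuRF genes, 1 bar per library. The Trim54 share was 26.8% or more in each Control library and 9.74% or less in each AKG library.

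Fbxo32, the F-box protein atrogin-1 that brings substrates such as calcineurin to the SCF ligase, stood at 34.5, 47.4 and 50.8 CPM in Control 1, 2 and 3. In AKG 1, 2 and 3 it stood at 73.4, 83.8 and 109 CPM. The groups did not overlap, and both varied widely: the highest library was 1.47 times the lowest in Control and 1.49 times in AKG. The log2 fold change was 1.01 (SE 0.201), and 0.93 with AKG 2 alone. Its FPKM was the lowest of the 7 genes in Control, at 5.45 ± 1.16, and stood at 14.9 ± 3.68 after AKG. Among the AKG libraries, Fbxo32 and Trim63 were by CPM both highest in AKG 3 and lowest in AKG 1, as were Trim72 and Asb2. By FPKM Trim63 was lowest in AKG 2 (75.77, beside 76.34 in AKG 1). Within Control, Fbxo32 was highest by CPM in Control 3, where Trim63 was lowest. By FPKM this did not hold: Fbxo32 stood at 6.145 in Control 2 and 6.09 in Control 3, and Trim63 was highest in Control 2 (43.86).

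Asb2, the substrate adaptor of a cullin 5 ligase that targets filamins, had the highest level of the 7 genes. It stood at 351, 369 and 402 CPM in the Control libraries and at 189, 206 and 226 CPM in the AKG libraries. The groups did not overlap and the spread within each was small, with a coefficient of variation of 6.87% and 9.07%. The log2 fold change was -0.85 (SE 0.0892), and -0.86 with AKG 2 alone. In the authors' deposited table, whose fold change is a ratio of FPKM means, it was -0.45. Scaling by total counts gave -0.41, so the size of this difference depends strongly on the scaling.

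Trim72 (mitsugumin 53), which takes part in repair of the muscle cell membrane, stood at 105, 122 and 129 CPM in Control 1, 2 and 3 and at 21.1, 30.9 and 38.1 CPM in AKG 1, 2 and 3. All AKG values were below all Control values, and the AKG libraries differed from each other by up to 1.80-fold, the widest spread within a group among the 7 genes. The log2 fold change was -1.98 (SE 0.218). An antisense gene, Gm15533, covers 27.6% of the exon bases of Trim72 in GENCODE M21, with the same limit as for Trim54. Genes on the opposite strand also cover parts of Trim7 (Gm12184 1.84% and Gm16170 6.46%) and of Fbxo32 (Gm15943 2.67%). Of the overlapping genes named, Gm12184 alone had a row by symbol in the deposited table. With AKG 2 alone the log2 fold change of Trim72 was -1.94.

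Trim7, whose protein binds glycogenin, the primer of glycogen synthesis, had the largest difference of the 7. Its values were 59.1, 57.5 and 72.7 CPM in Control and 6.46, 6.71 and 5.22 CPM in AKG. The lowest Control value was 8.56 times the highest AKG value. The means were 63.1 ± 8.33 and 6.13 ± 0.801 CPM, a log2 fold change of -3.36 (SE 0.127), and 24 of the 13117 tested genes had a lower one. It was read from 869, 925 and 987 counts in Control and 115, 108 and 94 in AKG. The sequence of Trim7 shared 0.273% of its stretches of 50 bases with other genes and that of Fbxo32 0.476%, and the other 5 genes shared none, so no stretch of that length is common to the MuRF paralogs.

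Levels of different genes are compared in FPKM only, where length is taken into account. In Control the order was Asb2 (130 ± 9.13), Trim72 (47.9 ± 5.87), Trim63 (40.1 ± 3.68), Trim54 (26.8 ± 2.80), Trim7 (23.1 ± 2.42), Trim55 (21.3 ± 2.76) and Fbxo32. The ranges of Trim72 and Trim63 overlapped, as did those of Trim54 and Trim7 and those of Trim7 and Trim55, so the order within these pairs is not resolved. By mean Control FPKM, Asb2 stood above 98.4% of all rows of the table, Trim72 above 96.1%, Trim63 above 95.2% and Fbxo32 above 70.4%. After AKG the order was Asb2 (95.6 ± 10.9), Trim63 (84.3 ± 14.2), Trim55 (43.3 ± 7.57), Trim72 (16.6 ± 5.09), Fbxo32, Trim54 (10.1 ± 1.77) and Trim7 (3.05 ± 0.267). Asb2 and Trim63 now overlapped, and so did Trim72 and Fbxo32. The FPKM of the 7 genes together was 270 to 307 in Control and 248 to 305 in AKG, which overlapped. FPKM is scaled by each library's total and not by TMM, so this overlap belongs to that scale. The sum was not computed with TMM scaling, and an unchanged pooled level is not read from it.

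**Figure D3:**
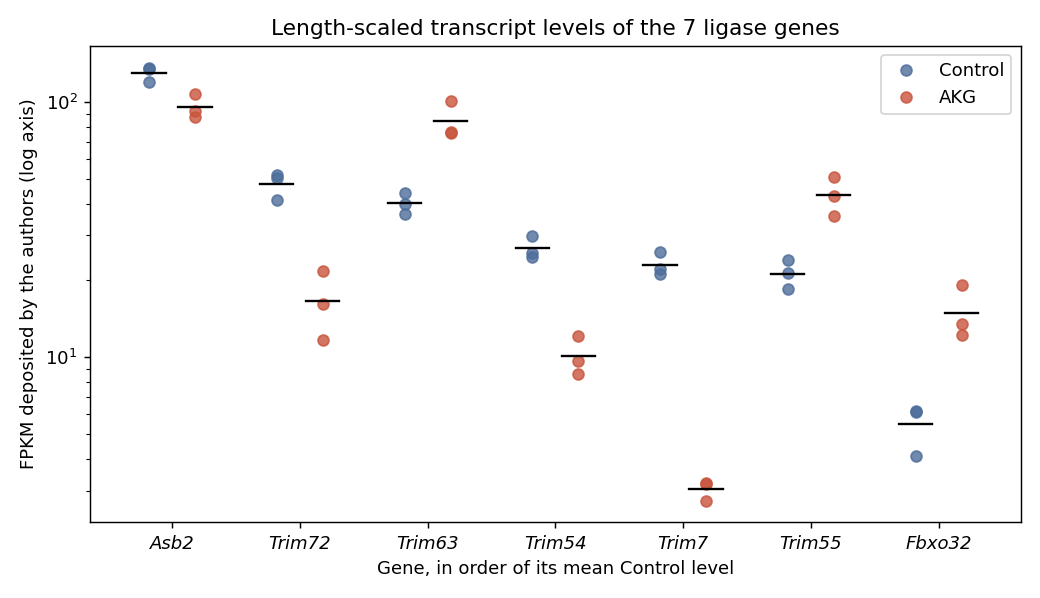
FPKM of the 7 genes (log axis) in each Control and AKG library, with a line at each group mean, ordered by the mean Control level. Asb2 was highest in both groups on average, and Trim7 moved from the fifth place in Control to the last in AKG.

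The other genes of the pathway were read from lists, by how many passed the threshold of edgeR's quasi-likelihood test with Benjamini-Hochberg adjustment over all genes. The background was 25% of tested genes higher and 25.2% lower, with a median log2 fold change of 0.00. Scaling by total counts moved that median to 0.45, so each list is also given on that scale.

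Among 63 other TRIM genes in the table, 40 had enough counts to be tested. Of these 13 were higher and 6 lower, their log2 fold changes ranged from -1.14 to 1.37 around a median of 0.13, and total-count scaling gave 23 and 1. Without Control replicate 1, 8 were higher. The smallest p-values belonged to Trim35 (78.3 ± 2.71 to 127 ± 12.5 CPM, adjusted p = 1.38e-05), Trim23 (17.1 ± 0.884 to 28.7 ± 1.76 CPM, 2.84e-05), Trim33 (23.9 ± 0.595 to 36.2 ± 1.76 CPM, 7.09e-05) and Trim59 (7.67 ± 0.345 to 14.0 ± 1.35 CPM, 9.14e-05). Trim33, also called TIF1γ, is a regulator of transcription downstream of TGF-β. No other tested TRIM gene had a log2 fold change as low as that of Trim54, Trim72 or Trim7. Those 3 were picked with this contrast already known, so nothing is read from the comparison. Of 15 tested genes of the ASB family other than Asb2, 2 were higher and 3 lower (median -0.07; 8 and 2 under total-count scaling). Asb10 fell from 33.3 ± 3.13 to 16.5 ± 2.19 CPM (adjusted p = 8.42e-06) and Asb5 from 9.18 ± 0.912 to 4.37 ± 0.114 CPM (8.92e-05). Asb4 rose from 5.62 ± 0.16 to 8.53 ± 1.19 CPM (0.00624), and with AKG 2 alone 0 were higher. Asb13 fell from 11.4 ± 1.2 to 8.25 ± 0.758 CPM (0.0129), with an adjusted p of 0.0704 without Control replicate 3 and 0.0566 without AKG replicate 2. The count of 2 higher ASB genes was 1 without Control replicate 1, 2 or 3 or AKG replicate 2 or 3.

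Other ubiquitin ligases with known roles in muscle moved both ways. All 28 were tested, 13 were higher and 8 lower, and the median was 0.16 (17 and 2 under total-count scaling). Fbxl22, an F-box gene of the cardiac Z-disc that targets α-actinin and filamin C, fell from 103 ± 8.74 to 33.2 ± 5.36 CPM (adjusted p = 4.79e-07). Its values were 112, 95.0 and 102 CPM in the Control libraries and 37.2, 35.2 and 27.1 CPM in the AKG libraries, so the groups were far apart. Pdzrn3, a ligase of muscle differentiation, rose from 29.7 ± 1.27 to 69.7 ± 12.5 CPM (3.92e-06), and Nedd4, the HECT ligase, from 476 ± 15 to 831 ± 54.8 CPM (4.37e-06). Stub1, which encodes the chaperone-linked ligase CHIP, fell from 86.6 ± 3.01 to 55.2 ± 2.96 CPM (8.71e-06).

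A list of cullins with their subunits and NEDD8 enzymes, wider than the ligases of Fbxo32 and Asb2, held genes of both directions. Of 20 tested genes, 9 were lower and 8 higher, the median being -0.12 (3 and 11, median 0.32, under total-count scaling). With AKG 2 alone 4 were higher. Of the 8 higher genes, 5 were cullins that neither adaptor uses (Cul7, Cul4b, Cul3, Cul4a and Cul9). The scaffolds of their own ligases, Cul1 for Fbxo32 and Cul5 for Asb2, were not past the threshold (log2 fold changes of 0.14 and -0.11, adjusted p = 0.106 and 0.254), and both were higher under total-count scaling (0.59 and 0.33). Their partners Skp1, Rbx1, Rnf7, Elob and Eloc were all lower with TMM (log2 fold changes of -0.29 to -0.77), whereas under total-count scaling Elob was the one of these still past the threshold (-0.32, adjusted p = 0.00357) and Skp1 stood at 0.15. Apart from Elob and Cul7, these genes were named after their values were seen. Cul7 rose from 48.9 ± 0.805 to 82.1 ± 0.415 CPM (adjusted p = 1.44e-06). Elongin B (Elob), which joins SOCS box proteins to the cullin, fell from 109 ± 6.96 to 63.9 ± 6.23 CPM (7.58e-06). Ube2m and Ube2f, the conjugating enzymes that attach NEDD8 to cullins, fell from 106 ± 3.86 to 64.7 ± 0.872 CPM (2.21e-06) and from 37.5 ± 1.23 to 22.7 ± 0.6 CPM (1.12e-05). Of 29 genes of ubiquitin and its activating and conjugating enzymes, 8 were higher and 6 lower (median 0.03), and 24 and 1 under total-count scaling. Ube2n, which builds lysine 63 chains, fell from 71.7 ± 3.63 to 44.2 ± 3.05 CPM (9.36e-06), and Ube2e2 (4.34 ± 0.426 to 10 ± 0.504 CPM, 2.62e-05), Ube2h (82.8 ± 2.91 to 120 ± 6.1 CPM, 4.47e-05) and Ube2z (41.7 ± 3.57 to 57.6 ± 2.22 CPM, 0.000413) rose. Without Control replicate 1 or 2, 3 genes of this list were lower.

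Among 23 tested genes of a list of upstream regulators, 11 were higher and 2 lower around a median of 0.24 (20 and 1 under total-count scaling). The list does not separate activators from inhibitors of the ligase genes, so these counts give no direction of action. Foxo3 stood at 32.4, 37.4 and 33.1 CPM in the Control libraries and at 72.7, 105 and 149 CPM in the AKG libraries. The groups did not overlap, the highest library was AKG 3 and the lowest AKG library was AKG 1. By CPM, Trim63 and Fbxo32 had this order of AKG libraries, and so did Trim72 and Asb2, which stood lower after AKG. For Trim63 the order of AKG 1 and AKG 2 was the reverse by FPKM (76.34 and 75.77). The log2 fold change of Foxo3 was 1.66 (SE 0.294, adjusted p = 0.00771). Foxo4 rose from 21.1 ± 0.942 to 41.8 ± 3.56 CPM (1.94e-06) and Foxo1 from 23.1 ± 2.24 to 30.9 ± 3.6 CPM (0.00514). The coactivator gene Ppargc1a rose from 88.5 ± 10.4 to 160 ± 13.9 CPM (8.20e-06), and the histone deacetylase gene Hdac5 (83.3 ± 6.11 to 127 ± 1.26 CPM, 1.75e-05) and Smad2 (17.9 ± 0.994 to 30.2 ± 3.59 CPM, 5.74e-05) rose as well. The 2 lower genes were Foxo6 and Nfkb1, named after their values were seen, and 1 was lower without Control replicate 1, 2 or 3 or without AKG replicate 2.

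Nr3c1, the glucocorticoid receptor gene, was not past the threshold (75.9 ± 3.77 and 80.7 ± 6.37 CPM, adjusted p = 0.370), and was past it under total-count scaling (log2 fold change 0.53, adjusted p = 0.000127). Klf15, a glucocorticoid-induced factor, stood at 11.9, 12.4 and 20.2 CPM in Control and at 21.1, 31.3 and 40.0 CPM in AKG. The closest values nearly met, and the adjusted p of 0.0434 was lost when Control replicate 1 (0.113), Control replicate 2 (0.123), AKG replicate 2 (0.105) or AKG replicate 3 (0.0904) was left out.

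Known FoxO target genes other than Trim63 and Fbxo32, most of them genes of autophagy and of growth restraint, were higher in 20 of 28 cases and lower in 2, around a median of 0.63. Total-count scaling gave 26 and 2, AKG 2 alone 20 and 3, and with 1 library left out at a time 17 to 20 were higher. Irs2, the insulin receptor substrate, rose from 8.71, 8.45 and 9.28 CPM to 41.6, 33.7 and 32.5 CPM (adjusted p = 3.12e-08). Eif4ebp1, the translation repressor 4E-BP1, rose from 51.3 ± 0.979 to 127 ± 7.51 CPM (2.56e-08) and Pik3ip1, an inhibitor of PI3 kinase, from 26.1 ± 2.05 to 83.6 ± 13.6 CPM (4.20e-07). The lower genes were Sod2, the mitochondrial superoxide dismutase, which fell from 423 ± 29.5 to 216 ± 10.4 CPM (7.31e-07), and Gadd45a, named after its value was seen. This list was drawn up with earlier results of these data known.

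**Figure D4:**
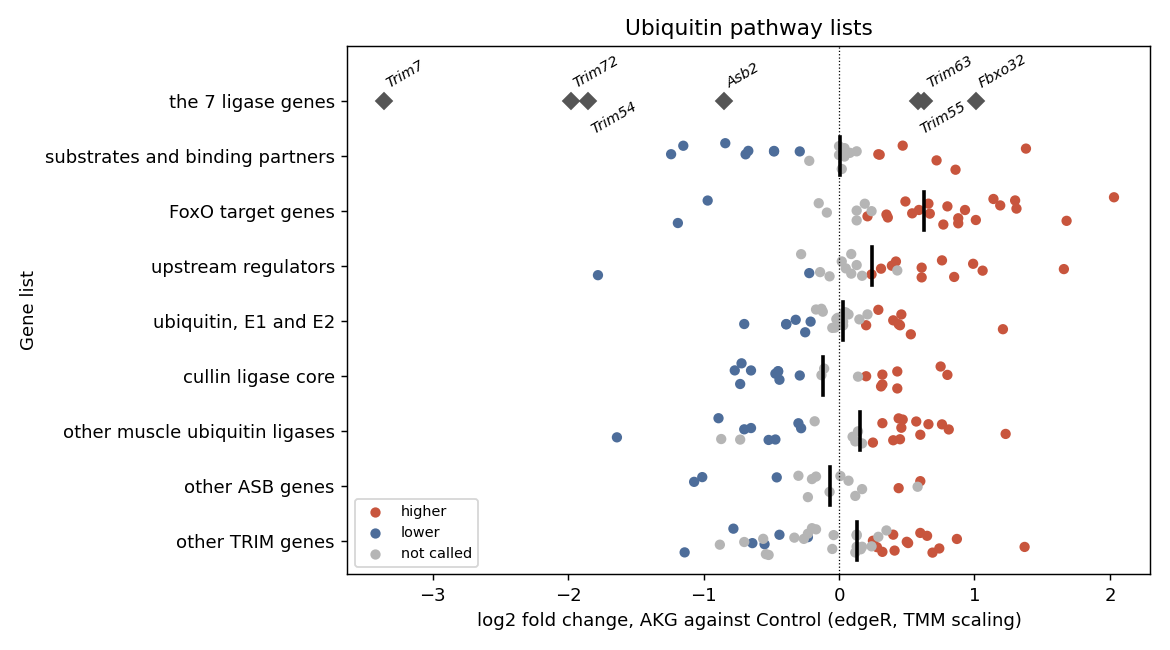
Log2 fold change (AKG against Control) of each tested gene of the 8 lists, 1 point per gene, coloured by whether it passed the edgeR threshold as higher or lower, with a black line at each list's median, and the 7 ligase genes on top as diamonds with no call shown. The median is 0.63 for the FoxO target genes and lies between -0.12 and 0.24 for the other lists.

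Substrates and binding partners were followed gene by gene, as transcripts only. Their protein levels and ubiquitination were not measured in these data, and any effect of the ligases on them was not tested. Of 22 tested, 8 were lower and 6 higher, the median being 0.01 (5 and 13 under total-count scaling). Tnni3, the cardiac troponin I ubiquitinated by MuRF1, fell from 2765 ± 190 to 1167 ± 120 CPM (adjusted p = 5.64e-07). The titin gene Ttn fell from 5396 ± 202 to 3872 ± 22.8 CPM (0.000834), but its log2 fold change was -0.03 under total-count scaling and 0.01 with limma on log2(FPKM + 1). Gyg, the glycogenin gene and partner of Trim7, rose from 76.5, 79.7 and 84.6 CPM to 145, 140 and 153 CPM (7.87e-07). It thus differed in the opposite direction from Trim7. Dysf, the dysferlin of membrane repair that works with Trim72, fell from 135 ± 6.08 to 60.9 ± 3.01 CPM (6.63e-08), and Cav3, its caveolin partner, from 61.3 ± 4.61 to 44.1 ± 0.441 CPM (0.000213), which was -0.03 on the log2 scale under total-count scaling. Insr, the insulin receptor gene whose protein has been described as a target of Trim72, rose from 128 ± 5.28 to 211 ± 12.7 CPM (5.36e-06). Flnc, the muscle filamin targeted by Asb2, stood at 151 ± 10.9 and 151 ± 23.6 CPM (adjusted p = 0.980). Under total-count scaling Flnc was past the threshold (log2 fold change 0.45, adjusted p = 0.00815), and with AKG 2 alone it was lower (-0.26, adjusted p = 0.0326).

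The genes with the pattern most like that of each member were found among 10439 genes with a mean of at least 5 CPM, by the distance between log2 CPM profiles centred on their means over the 6 libraries. Since all 6 libraries and both groups enter, the likeness is mostly that of the group difference. For Trim63 the nearest were Arl4a (distance 0.103), Nedd4l (0.107) and Irx3 (0.118). Fbxo32 was nearest to Depdc1a (0.216). Trim55 was nearest to Zbtb33 (0.162), Trim54 to P2ry1 (0.234), Trim7 to Lrrc15 (0.287) and Trim72 to Slc25a35 (0.194). Asb2 had the closest neighbours of all: the coenzyme Q synthesis gene Coq9 (0.0340), Aifm1 (0.0835) and the citrate synthase gene Cs (0.0971). Coq9 stood at a mean of 176 CPM in Control and 97.2 CPM in AKG.

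The directions of all 7 genes were the same under the 17 other settings examined. Across these, Trim63 ranged from 0.52 to 1.07, Trim55 from 0.38 to 1.03, Fbxo32 from 0.83 to 1.45, Asb2 from -0.92 to -0.41, Trim54 from -2.02 to -1.33, Trim72 from -2.19 to -1.51 and Trim7 from -3.43 to -2.57 on the log2 scale.

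**Figure D5:**
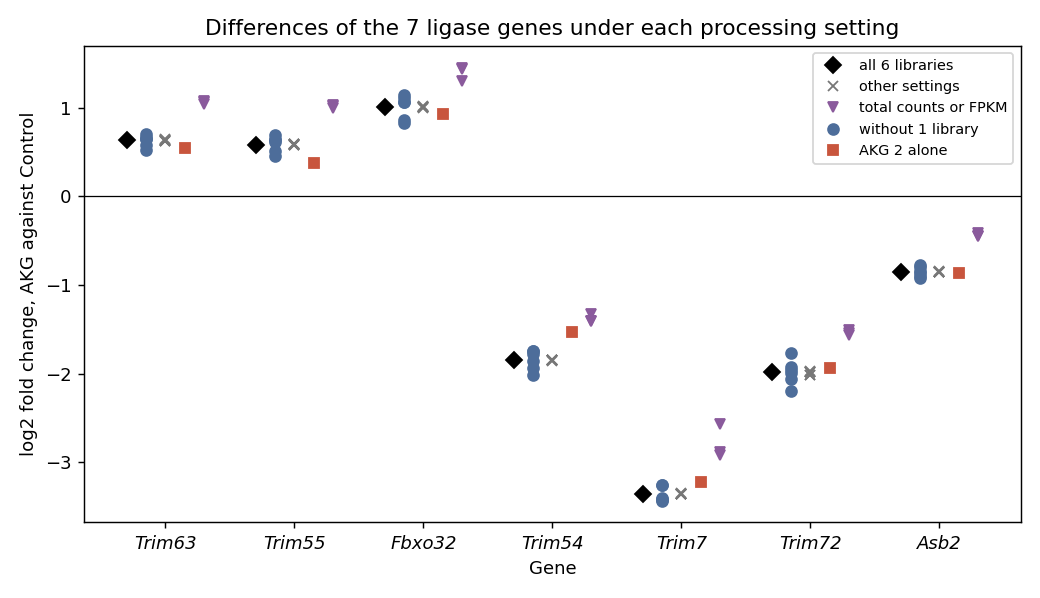
Log2 fold change of the 7 genes (vertical axis) with all 6 libraries, with 1 library left out, with AKG 2 alone, with total counts or FPKM, and under other settings. Each gene stayed on its side of 0, and total counts and FPKM placed every gene higher than TMM scaling did.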

How the data were processed

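The authors deposited 1 table that pairs each library's estimated counts with FPKM, per the file headers, and a log2 fold change that equals the log2 ratio of their mean FPKM. The counts are whole numbers. Per the submitters' processing notes HISAT2 2.1.0, RSEM 1.2.19 and DESeq2 1.20.0 were used. Not given in the sources used here are the role of each tool, the build and the annotation. Gene positions are not printed except for RefSeq windows. FPKM depends on each library's total, so a fall of abundant transcripts raises all others.

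For the counts, edgeR 4.0.16 ran in R 4.3.3: filterByExpr (minimum count 10, minimum total 15) kept 13117 of 22063 genes, all 7 members included, libraries were scaled by TMM, and a quasi-likelihood test with robust dispersions was adjusted by Benjamini-Hochberg (threshold 0.05). The script was tested on simulated data. Each SE was derived by dividing a fold change, on the log2 scale and without sign, by the root of its F. The 30 rows without a symbol were not named. Alternatives were other scalings and filters, DESeq2 1.42.0, limma 3.58.1 (voom, and log2 FPKM with pseudocounts of 1 and 0.1), the replicate block, fewer libraries and no mitochondrially encoded genes. Members, lists and tests were chosen with earlier results of these data known. Of each list, the text names up to 4 genes past the threshold with the smallest p, plus Foxo1, Foxo3, Nr3c1, Klf15, Ttn, Gyg, Flnc and Cav3. One gene that the likeness measure named is not reported here.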

Additional observations from a re-analysis of the deposited data

How the results depend on the processing

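Values for the 7 genes are log2 fold changes. Total-count scaling gave 7431 higher and 1196 lower genes, beside 3281 and 3309 with TMM, and the values were 1.07 for Trim63, 1.03 for Trim55, 1.45 for Fbxo32, -1.41 for Trim54, -2.92 for Trim7, -1.54 for Trim72 and -0.41 for Asb2. Limma on log2(FPKM + 1) gave 6722 and 1075 genes and 1.04 for Trim63, 0.99 for Trim55, -1.33 for Trim54, -2.57 for Trim7, -1.51 for Trim72 and -0.45 for Asb2. A pseudocount of 0.1 gave 6709 and 1070 genes and 1.06 for Trim63, 1.02 for Trim55, 1.43 for Fbxo32, -1.41 for Trim54, -2.88 for Trim7, -1.56 for Trim72 and -0.45 for Asb2. These settings lift the whole table, whose median log2 fold change becomes 0.45 with total counts and 0.38 with log2(FPKM + 1). Ttn turned to 0.01 in both FPKM fits, and Cav3 and Asb13 lost their calls in them and with total counts. AKG 2 alone gave -1.53 for Trim54 and 0.38 for Trim55, in a fit where the lone library is assumed to vary like the Controls. With 1 library left out, 2751 to 3296 genes were higher and 2845 to 3243 lower. Under both FPKM fits, beside TMM, fewer genes were lower among other TRIM genes (1 and 6), ASB genes (2 and 3), other muscle ligases (2 and 8), the cullin core (3 and 9), ubiquitin and its enzymes (1 and 6), regulators (0 and 2) and substrates and partners (5 and 8), while the count was 2 in both for FoxO targets. More genes were higher in all 8 lists: other TRIM genes (21 and 13), ASB genes (7 and 2), other muscle ligases (18 and 13), the cullin core (10 and 8), ubiquitin and its enzymes (25 and 8), regulators (19 and 11), FoxO targets (26 and 20) and substrates and partners (13 and 6). The DESeq2 test gave 1 higher ASB gene, 3 lower genes of ubiquitin and its enzymes and 1 lower regulator, and no low-count filter gave 1 higher ASB gene and an adjusted p of 0.0834 for Klf15. The cause of the single changes was not tested.

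The labels number the libraries alike in both groups. Deviations of same-numbered libraries from their group means had correlations over genes of 0.181 (replicate 1), -0.057 (replicate 2) and 0.06 (replicate 3). Differently numbered libraries gave -0.147 to 0.084. Only replicate 1 stood above that range, and the numbers were not taken as pairs. With the replicate block 1 other ASB gene was higher in place of 2, the log2 fold changes were 0.62 for Trim63 and 1.0 for Fbxo32, and 3257 genes were called higher and 3314 lower. Depth did not limit the 7 genes, which had 94 to 5932 counts in each library.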
